A study of Mus musculus with 36 samples.

Results

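The difference between 2 differences was measured here: the effect of losing MLL4 in embryoid bodies at day 4 (D4EB), minus the effect of losing it in embryonic stem cells (ESC). All 8 RNA-Seq libraries of these stages entered, of 12 RNA-Seq libraries and 36 samples in the series. In every group the mouse cells lacked MLL3 (MLL3-/-), the controls included. The groups were MLL3-/-;MLL4-/- bodies and MLL3-/-;MLL4flox/flox bodies, then MLL3-/-;MLL4-/- ESC and MLL3-/-;MLL4flox/flox ESC, with 2 libraries each. The MLL4-/- cells are called DKO and the MLL4flox/flox cells f/f below. Per the labels, ESC grew on irradiated fibroblast feeders in medium with LIF, and bodies formed from them in suspension without LIF for 4 days. The labels do not say whether the 2 libraries of a group came from separate cultures or from 1 clone. The tests therefore weigh differences only against the spread between these libraries, and that spread may be technical. A positive interaction means that DKO stood higher relative to f/f in bodies than it did in ESC, and a negative one that it stood lower.

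MLL3 and MLL4, the products of Kmt2c and Kmt2d, are related methyltransferases that place monomethylation on lysine 4 of histone H3, mostly at enhancers, as part of complexes that also hold the demethylase UTX. ESC held in LIF express a naive pluripotency programme. In suspension without LIF the cells leave it, pass through an epiblast-like state, and begin to form germ layers under Nodal, Wnt, BMP and FGF signals, with the primitive streak genes among the first to be switched on.

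Each group had 1 library in each of 2 batches. Replicate 1 (batch 1) was deposited as counts with RPKM and replicate 2 (batch 2) as FPKM, so pairs of values below give batch 1 and then batch 2, and levels are read only within a batch. Depth lay between 11366199 reads (batch 2 of f/f bodies) and 23147514 reads (batch 1 of DKO bodies). Kmt2d, over its whole transcript, stood at 14.3 and 10.1 in DKO bodies, 16.4 and 15.4 in f/f bodies, 8.89 and 10.7 in DKO ESC and 13.5 and 18.7 in f/f ESC. Kmt2c stood at 3.07 and 2.23 in DKO bodies, 2.32 and 2.06 in f/f bodies, 1.8 and 2.82 in DKO ESC and 1.89 and 3.44 in f/f ESC; the deleted exons are not given, so neither value checks the genotype. Among 6 pluripotency markers the summed level was 1236 and 987 in DKO bodies, 1215 and 1018 in f/f bodies, 1499.6 and 1710.1 in DKO ESC and 1612 and 1900.4 in f/f ESC. The 20 fibroblast and feeder markers were all detected in every library, and their summed level was 154 and 227 in DKO bodies, 201 and 339 in f/f bodies, 273 and 999.7 in DKO ESC and 215.0 and 1094 in f/f ESC. In both batches that sum was lower in bodies than in ESC of either genotype, with the smallest gap in f/f cells of batch 1 (201 and 215.0). The part of feeder RNA in the results below was not tested. Because whole cultures were sequenced, fewer cells of a type and less RNA per cell cannot be told apart.

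No gene passed the test of the interaction. Across 12466 genes tested with limma on log2(value + 1), the smallest Benjamini-Hochberg adjusted p was 0.0657. At least 4 genes shared that value, Atf3 and Myadm among them. This left 0% called, and 1704 genes (13.7%) had an unadjusted p below 0.05. A quasi-likelihood test with edgeR on the reads called 0 of 12408 genes as well, with 1736 at an unadjusted p below 0.05. The leftover variation had a direction: the median absolute difference between batches was 0.24 on the log2 scale in the way the stages differed, against 0.14 in the way the genotypes differed. With the batch as a block within each stage, which takes up that difference, limma called 353 genes (2.83%), 127 of them higher and 226 lower. Its adjusted p is called the stage-block adjusted p and is given beside some of the genes whose call it changes. A gene shown without it may or may not have been called in that fit. Among those not called were Klf4 (stage-block adjusted p = 0.0898), Nodal (0.0675), Plaur (0.0639), Dppa3 (0.0562) and Igf2 (0.152). Every other adjusted p comes from limma with a single batch block.

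The genes described here are those whose interaction had the same sign and was at least 2-fold in both batches, which involves no test. There were 423 of them (3.39% of the genes tested), 148 higher (1.19%) and 275 lower (2.21%). These shares, and the 2.83% called with the block within each stage, are the background for the list counts below. The sign was the same in both batches for 8126 of all 12466 genes (65.2%), and the batches' interactions had a Pearson correlation of 0.57 across genes, which share their 8 libraries and are not independent. Just inside the 2-fold limit lay Aifm2, Jak3, Pgap4 and Spred3, whose smaller batch value was 1.00086, 1.00315, -1.00436 and -1.00506 on the log2 scale. Just outside lay Capn2, Tmem35b, Ptpn9 and Paip1 at -0.999232, 0.997009, -0.99633 and -0.996107. Of the 423 genes, 273 were also called with the block within each stage, which is 64.5% of the 423 and 77.3% of the 353. Both rules use the same batch interactions of each gene, so an overlap is built in and nothing is read from its size.

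**Figure D1:**
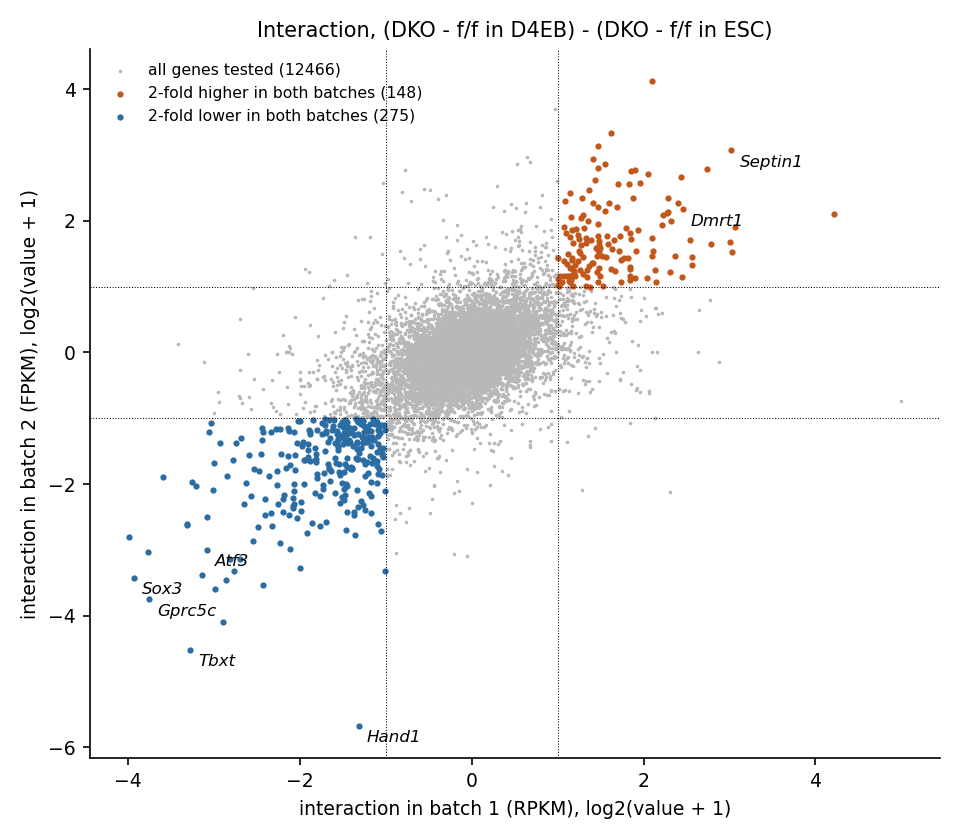
Interaction of each of the 12466 genes tested in batch 1 (horizontal axis, from RPKM) and batch 2 (vertical axis, from FPKM), both on the log2(value + 1) scale; dotted lines mark 2-fold, orange points the 148 genes at least 2-fold higher in both batches and blue points the 275 at least 2-fold lower. Lower genes outnumber higher ones, and Hand1 shows a gene whose size differs widely between batches.

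The 275 lower genes took several shapes. In DKO cells 0 of them were at least 2-fold higher in bodies than in ESC in both batches, against 126 in f/f cells. At least 2-fold lower in bodies were 50 in DKO cells, against 3 in f/f cells. In neither genotype did 99 of them reach 2-fold by stage in both batches. Seen by genotype, 155 were at least 2-fold lower in DKO than in f/f bodies without a 2-fold effect in ESC. Another 32 were at least 2-fold higher in DKO than in f/f ESC without a 2-fold effect in bodies. A further 6 were 2-fold lower in DKO at both stages, among them Car2, Car4, Dok2, Foxh1 and Cdc42ep5. Sox3 and Sfn, 2 genes, were 2-fold lower in DKO bodies and 2-fold higher in DKO ESC. The other 80 reached 2-fold at neither stage in both batches. Among the 148 higher genes, 1 was at least 2-fold lower in bodies than in ESC in DKO cells, against 67 in f/f cells. Of these 148, 61 were at least 2-fold lower in DKO than in f/f ESC with no 2-fold effect in bodies, and 37 at least 2-fold higher in DKO than in f/f bodies with none in ESC. Dnmt3l, Dppa3 and Ifitm1, 3 genes, were lower in DKO at both stages with the smaller deficit in bodies. The genotype effect had opposite signs at the 2 stages in both batches in 207 of the 423 genes (48.9%), against 2033 of all genes tested (16.3%). The size asked of the interaction favours such genes, so nothing is read from the difference.

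**Figure D2:**
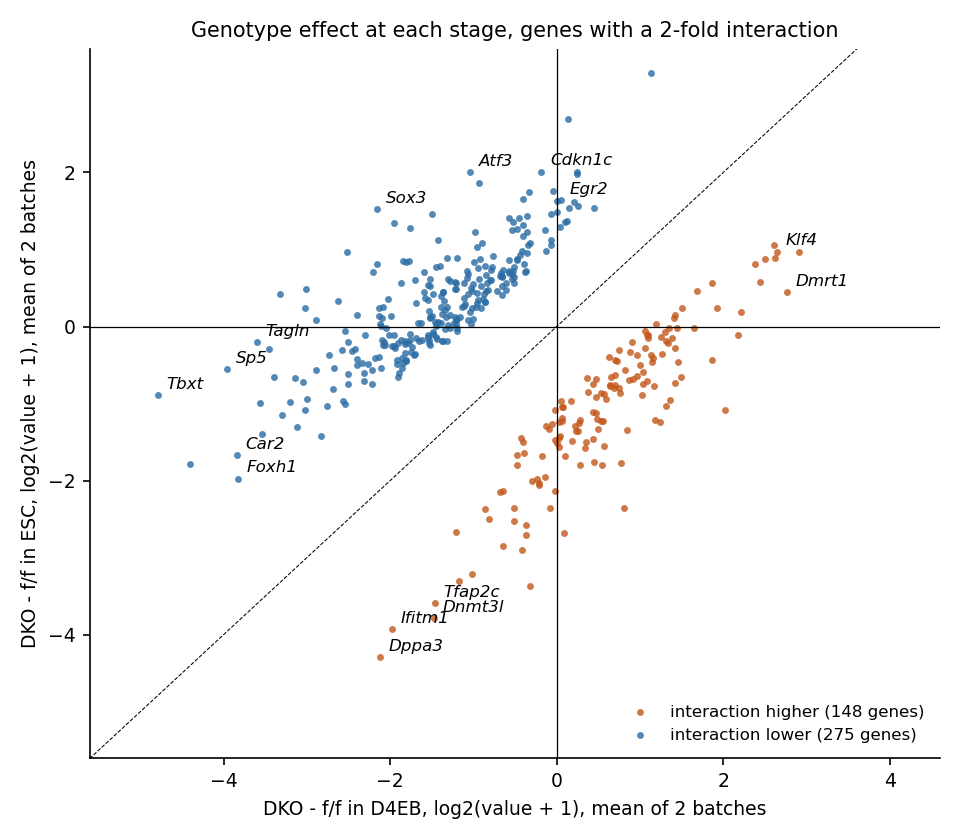
Genotype effect (DKO minus f/f, log2(value + 1), mean of 2 batches) in bodies (horizontal axis) and in ESC (vertical axis) for the 423 genes; blue marks the 275 with a negative interaction, orange the 148 with a positive one, and the dashed line marks equal effects. Tbxt and Sp5 lie far to the left, below f/f in DKO bodies, while Dppa3 and Dnmt3l lie low, below f/f mostly in DKO ESC.

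The primitive streak list had the lowest median of the 32 gene lists described here, just below the trophoblast list (-2.183 and -2.177). Both lists hold Eomes. Of 10 streak genes tested, 8 were among the lower genes and 0 among the higher. Their median interaction was -2.18 against -0.03 over all genes tested, and 5 were called with the block within each stage. Tbxt (brachyury), the T-box factor of streak and nascent mesoderm, stood at 1.08 and 1.05 in DKO bodies, 69.5 and 45.1 in f/f bodies, 1.39 and 0.340 in DKO ESC and 7.32 and 0.317 in f/f ESC. Both f/f body libraries lay above every other library, and the interaction was -3.90 ± 0.81 (SE, n = 2 libraries per group; limma, adjusted p = 0.145, stage-block adjusted p = 0.0436). In batch 1, Tbxt, Mixl1, Fgf8, Lhx1, Foxa2 and Wnt3 were also lower in DKO ESC than in f/f ESC, while Eomes and Evx1 were higher. Mixl1, a homeobox factor of the streak, was at 0.510 and 0.195 in DKO bodies, 17.0 and 11.1 in f/f bodies, 0.575 and 0.264 in DKO ESC and 1.59 and 0.162 in f/f ESC. This gave an interaction of -3.16 ± 0.35 (adjusted p = 0.0709, stage-block adjusted p = 0.0278). Eomes, the T-box factor that starts mesendoderm, was at 4.87 and 5.20 in DKO bodies and 29.7 and 24.4 in f/f bodies, against 5.66 and 4.34 in DKO ESC and 4.36 and 1.48 in f/f ESC; here DKO lay below f/f in bodies and above it in ESC in both batches. The others among the 8 were Fgf8 (-2.57), a ligand needed for migration out of the streak, Evx1 (-2.30), a homeobox gene of the posterior streak, Lhx1 (-2.06) and Foxa2 (-1.91), factors of the anterior streak and node, and Wnt3 (-1.86), the ligand that starts streak formation.

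**Figure D3:**
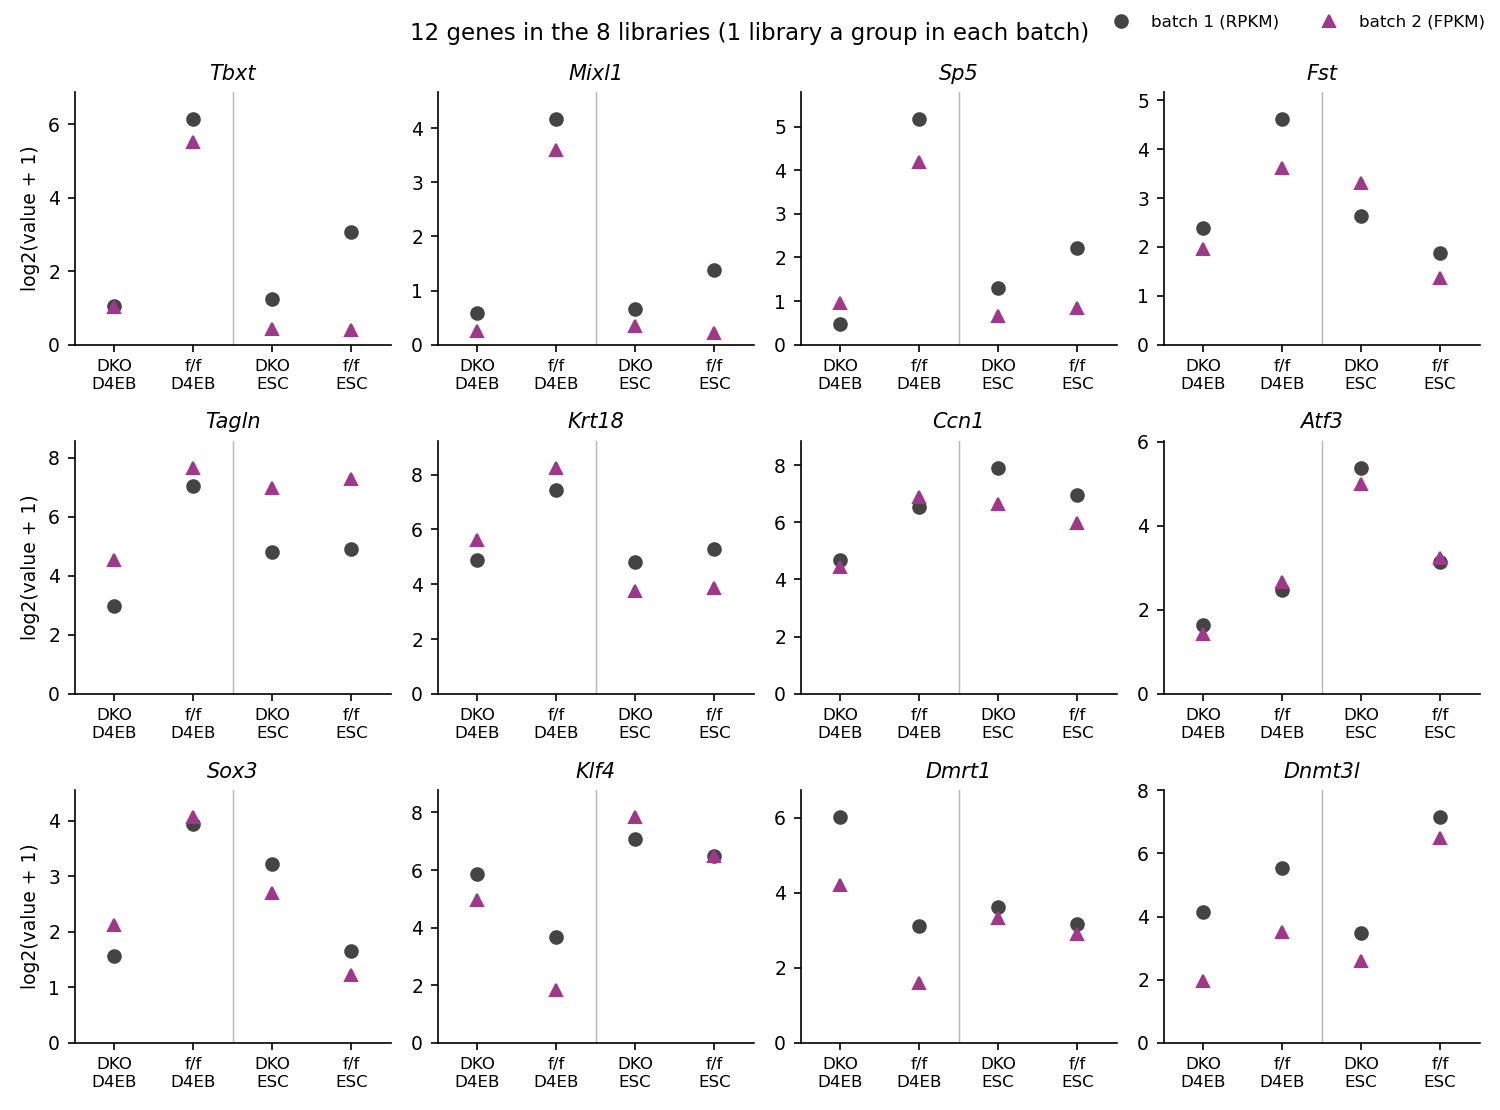
Levels of 12 genes in all 8 libraries as log2(value + 1), with circles for batch 1 (RPKM), triangles for batch 2 (FPKM) and groups in the order DKO bodies, f/f bodies, DKO ESC and f/f ESC. Tbxt, Mixl1, Sp5, Tagln and Krt18 are highest in f/f bodies in both batches, Atf3 is highest in DKO ESC, and Dnmt3l is highest in f/f ESC.

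Genes of the Nodal pathway, the TGF-beta branch that induces mesendoderm through SMAD2 and SMAD3, had a median interaction of -0.45, and 5 of 18 were among the lower genes and 0 among the higher. Foxh1, the forkhead cofactor that brings SMADs to DNA, stood at 5.69 and 3.91 in DKO bodies, 81.2 and 79.9 in f/f bodies, 6.16 and 6.39 in DKO ESC and 30.0 and 25.4 in f/f ESC. It was low in all 4 DKO libraries, and the gap to f/f was wider in bodies, giving an interaction of -1.85 ± 0.21 (limma, adjusted p = 0.0709, stage-block adjusted p = 0.0278). The ligand and its co-receptor differed from Foxh1. Nodal itself was at 24.6 and 9.01 in DKO bodies, 33.4 and 28.4 in f/f bodies, 58.8 and 32.8 in DKO ESC and 31.3 and 18.6 in f/f ESC, so DKO lay below f/f in bodies and above it in ESC in both batches. Tdgf1 (Cripto), the co-receptor, was at 96.8 and 172 in DKO bodies, 112 and 164 in f/f bodies, 236 and 659 in DKO ESC and 114 and 288 in f/f ESC; its interaction came from ESC, with the body libraries close together within each batch. Fst (follistatin), the secreted inhibitor of activins, crossed over, at 4.20 and 2.88 in DKO bodies and 23.5 and 11.3 in f/f bodies, against 5.16 and 8.88 in DKO ESC and 2.67 and 1.59 in f/f ESC. The interaction was -3.29 ± 0.52 (adjusted p = 0.103, stage-block adjusted p = 0.0338).

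Of 24 tested genes of the Wnt pathway, 6 were among the lower genes and 1 among the higher, and the list's median interaction was -0.47. Sp5, a zinc finger factor that beta-catenin switches on directly, stood at 0.391 and 0.956 in DKO bodies, 35.0 and 17.2 in f/f bodies, 1.45 and 0.576 in DKO ESC and 3.65 and 0.796 in f/f ESC. Its interaction was -3.40 ± 0.59 (adjusted p = 0.119, stage-block adjusted p = 0.0436). Axin2, the feedback inhibitor and common readout of the pathway, was at 2.83 and 1.87 in DKO bodies and 12.8 and 8.47 in f/f bodies, against 3.10 and 1.67 in DKO ESC and 4.56 and 1.63 in f/f ESC. For both genes f/f bodies were the highest libraries of their batch. The ligand Wnt8a (-2.48) and the receptors Fzd10 (-2.62) and Fzd2 (-1.44) were also lower, and Wnt3 is given above. Tcf7l1, the TCF that represses targets without Wnt, was the higher gene: 30.4 and 43.7 in DKO bodies and 45.8 and 50.7 in f/f bodies, against 13.2 and 16.5 in DKO ESC and 51.0 and 45.4 in f/f ESC, so its deficit in DKO was large in ESC and small in bodies. The 250 bases before the annotated start of Sp5 are shown because Sp5 was the lowest of these genes. Capitals mark the 1 match to ATCAAAG, a TCF and LEF motif, on either strand (chr2:70474673-70474922 of GRCm38.p6, plus strand, sequence from RefSeq).
Sp5: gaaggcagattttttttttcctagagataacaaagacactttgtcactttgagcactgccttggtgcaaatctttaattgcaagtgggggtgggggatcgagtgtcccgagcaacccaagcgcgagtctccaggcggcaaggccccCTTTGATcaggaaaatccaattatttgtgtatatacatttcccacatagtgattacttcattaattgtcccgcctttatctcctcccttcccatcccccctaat
A match to ATCAAAG was found before the start of 2 of 13 genes of the Wnt list that had a sequence in the table, and of 254 of 9753 genes tested that had one (2.60%). Letters alone show no binding.

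In the BMP pathway, whose ligands pattern posterior mesoderm and act through SMAD1 and SMAD5, 3 of 17 tested genes were among the lower genes and 0 among the higher (median interaction -0.54). Msx1 and Msx2, homeobox targets of BMP signals, had interactions of -2.34 and -1.85; Msx1 stood at 0.380 and 0.231 in DKO bodies, 7.88 and 2.46 in f/f bodies, 1.18 and 0.192 in DKO ESC and 0.759 and 0.0480 in f/f ESC. Id1, an early BMP target that blocks basic helix-loop-helix factors, was at 19.8 and 50.2 in DKO bodies, 29.6 and 56.0 in f/f bodies, 74.9 and 22 in DKO ESC and 19.6 and 10.6 in f/f ESC, so its interaction (-1.79) came mostly from ESC. The receptor Bmpr1a and the transducer Smad5 had interactions of -0.61 and -0.54 (adjusted p = 0.260 and 0.283) and did not reach 2-fold. The FGF and ERK feedback list had 2 of 18 among the lower genes, Fgf8 and Egr1, and a median of -0.20; the ERK phosphatase Dusp6 (-1.100; stage-block adjusted p = 0.0414), the effector Etv1 (-0.89) and the inhibitor Spry1 (0.86) were not 2-fold in both batches.

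The mesoderm, endoderm, extraembryonic and trophoblast lists each held lower genes. In mesoderm 4 of 7 tested genes were lower (Msx1, Msx2, Snai1 and Hand1). In definitive endoderm 4 of 8 were (Foxa2, Gata4, Sox7 and Cxcr4), and in extraembryonic endoderm 6 of 12 (Fst, Sparc, Foxa2, Gata4, Sox7 and Col4a1). In trophoblast 5 of 8 were lower, with Tfap2c as 1 higher gene. The lists share genes, and several members have roles outside the list's name, such as Krt8, Krt18 and Eomes in the trophoblast list. Gata4, a zinc finger factor of endoderm and heart, stood at 0.357 and 0.328 in DKO bodies, 3.33 and 5.57 in f/f bodies, 1.33 and 0.506 in DKO ESC and 0.880 and 0.546 in f/f ESC. Cxcr4, the chemokine receptor of migrating endoderm, was at 0.762 and 1.47 in DKO bodies and 4.49 and 6.89 in f/f bodies, against 1.62 and 1.08 in DKO ESC and 2.45 and 1.05 in f/f ESC. Sox7, a factor of primitive endoderm, differed from these: it was at 0.265 and 0.728 in DKO bodies, 0.443 and 0.323 in f/f bodies, 2.56 and 4.55 in DKO ESC and 0.565 and 0.908 in f/f ESC, so only DKO ESC stood out. Gata2, a trophoblast and blood factor, shared that shape, at 0.546 and 1.03 in DKO bodies, 0.942 and 1.57 in f/f bodies, 5.86 and 8.39 in DKO ESC and 2.13 and 0.829 in f/f ESC. Hand1, a factor of lateral mesoderm and trophoblast, rested on 1 library: it was at 0.751 and 0.548 in DKO bodies and 1.78 and 62.0 in f/f bodies, and its interactions were -1.32 and -5.67 in the 2 batches. Tfap2c (AP-2gamma), used by trophoblast, germ cells and naive ESC alike, was at 3.62 and 3.03 in DKO bodies and 17.3 and 6.71 in f/f bodies, against 3.27 and 3.48 in DKO ESC and 53.8 and 49.5 in f/f ESC. This gave an interaction of 2.13 ± 0.44 (adjusted p = 0.145, stage-block adjusted p = 0.0482). Prdm1, in the endoderm and germline lists, had an interaction of 1.23 and was not 2-fold in both batches.

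Epithelial genes split. The list's median interaction was -0.47, with -0.84 in batch 1 and -0.07 in batch 2. Of 20 tested, 5 were among the lower genes and 0 among the higher, all 5 called with the block within each stage. They were the simple keratins and junction genes: Krt19 (-3.26), Krt8 (-2.98) and its partner Krt18 (-2.27), Dsp (-2.23), the desmosomal plaque protein desmoplakin, and Cldn3 (-2.156), a tight junction claudin. Krt19 stood at 4.44 and 6.06 in DKO bodies, 44.9 and 54.1 in f/f bodies, 12.8 and 5.82 in DKO ESC and 12.3 and 4.12 in f/f ESC, with f/f bodies above all other libraries. Krt18 was at 28.9 and 48.2 in DKO bodies and 171 and 302 in f/f bodies, against 26.9 and 12.5 in DKO ESC and 38.3 and 13.5 in f/f ESC. The other 15 genes of the list were not 2-fold in both batches; Spint1, a protease inhibitor of epithelia, and Ocln (occludin) had interactions of -0.90 and -0.95. Genotype effects in the list were already negative in both stages by their medians, -2.08 in bodies and -1.13 in ESC. In the mesenchymal transition list 4 of 12 were lower, and all 4 lay below f/f in DKO bodies: the matrix glycoprotein Sparc (-2.14), the cytokine Tgfb1 (-1.67), the E-cadherin repressor Snai1 (-1.38) and Twist2 (-1.29). Twist1 had an interaction of -0.93 and did not reach 2-fold in both batches.

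Actin cytoskeleton genes lay on one side. All 15 tested had a negative interaction, against 6645 of all 12466 genes tested. Of the 15, 7 were among the 275 lower genes (2.21% of all genes tested) and 0 among the higher, and the median was -1.18. With the block within each stage 7 of the 15 were called, against 2.83% of all genes tested. Tagln (transgelin), an actin-bundling protein of smooth muscle, stood at 6.92 and 22.1 in DKO bodies, 132 and 200.1 in f/f bodies, 27.2 and 124 in DKO ESC and 28.8 and 156 in f/f ESC. The interaction was -3.39 ± 0.57 (adjusted p = 0.111, stage-block adjusted p = 0.0235). Tpm1, a tropomyosin that lines actin filaments, was at 25.1 and 31.0 in DKO bodies, 247 and 227 in f/f bodies, 38.1 and 35.2 in DKO ESC and 69.2 and 54.0 in f/f ESC, with f/f bodies at least 3-fold above every other library of their batch. Acta2, smooth muscle actin, was at 4.56 and 11.4 in DKO bodies, 15.7 and 53.3 in f/f bodies, 11.8 and 95.2 in DKO ESC and 17.7 and 116 in f/f ESC. In batch 2 the ESC of both genotypes held more Acta2 than f/f bodies, beside fibroblast marker sums of 227 in DKO bodies, 339 in f/f bodies, 999.7 in DKO ESC and 1094 in f/f ESC. The Acta2 interaction was -1.04 in batch 1 and -1.86 in batch 2, and the part of feeder RNA in it was not tested. Cnn1 (calponin), Zyx (zyxin), Tpm4 and Vcl (vinculin) had interactions of -2.13, -1.64, -1.54 and -1.16. The fibroblast and feeder list as a whole had a median interaction of -0.42, with Col5a1 (-1.32) as its 1 lower gene of 19 tested; Thy1, Vim and Fbln1 had interactions of -1.06, -1.001 and 0.91.

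Targets of YAP, the Hippo pathway coactivator that works through TEAD factors and responds to tension on actin, had a median interaction of -1.14, with 5 of 10 among the lower genes and 0 among the higher. Ccn1 (Cyr61), a secreted matrix protein and standard YAP readout, stood at 24.5 and 20.7 in DKO bodies, 91.8 and 119 in f/f bodies, 238 and 99.3 in DKO ESC and 122 and 62.2 in f/f ESC. Its DKO libraries were the lowest in bodies and the highest in ESC in batch 1, and in batch 2 they were the lowest in bodies and above f/f in ESC. Its interaction was -2.97 ± 0.52 (adjusted p = 0.119, stage-block adjusted p = 0.0175). Ccn2 (Ctgf), its relative, was at 10.3 and 10.4 in DKO bodies and 29.9 and 30.0 in f/f bodies, against 128 and 66.3 in DKO ESC and 104 and 76.7 in f/f ESC. Amotl2 (-1.96), a junctional protein that holds YAP in the cytoplasm, Lats2 (-1.88), the kinase that phosphorylates YAP, and Ptpn14 (-1.31), a phosphatase that binds YAP, were the other 3. All 3 restrain YAP and are also among its targets. The 250 bases before the annotated start are printed for Ccn1 and Amotl2, as the YAP targets with the lowest interactions. Capitals mark matches to CATTCC, the TEAD motif, on either strand. Vcl is printed as an actin gene with a match to the CArG box of serum response factor. It was the 1 gene with such a match among 6 lower actin genes that had a sequence. In the whole actin list 4 of 12 had one, and Actg1, Cnn2 and Myl9 of these were not lower genes. The first run of capitals in Vcl is the CArG box, and the second is a match to CATTCC on the other strand. The Amotl2 window also holds a match to ATCAAAG, left in lower case. Positions on GRCm38.p6 are chr3:145649986-145650235 (minus strand) for Ccn1, chr9:102717554-102717803 (plus strand) for Amotl2 and chr14:20929148-20929397 (plus strand) for Vcl, with sequences from RefSeq.
Ccn1: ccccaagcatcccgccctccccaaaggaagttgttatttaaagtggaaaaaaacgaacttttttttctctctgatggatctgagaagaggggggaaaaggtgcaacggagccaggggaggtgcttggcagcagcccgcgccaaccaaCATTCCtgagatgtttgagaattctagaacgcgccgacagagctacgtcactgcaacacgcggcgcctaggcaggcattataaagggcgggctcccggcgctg
Amotl2: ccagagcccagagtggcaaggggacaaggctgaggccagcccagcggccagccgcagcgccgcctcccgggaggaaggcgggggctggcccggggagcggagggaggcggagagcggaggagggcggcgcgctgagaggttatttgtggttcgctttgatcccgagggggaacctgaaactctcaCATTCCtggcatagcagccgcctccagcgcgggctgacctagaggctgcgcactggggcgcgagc
Vcl: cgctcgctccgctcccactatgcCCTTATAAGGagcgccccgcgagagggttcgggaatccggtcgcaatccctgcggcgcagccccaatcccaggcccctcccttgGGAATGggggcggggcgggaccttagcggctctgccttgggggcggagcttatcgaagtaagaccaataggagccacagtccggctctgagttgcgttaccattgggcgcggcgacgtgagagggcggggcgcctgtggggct
CATTCC was found in the 250 bases before the start of 7 of 8 genes of the YAP list that had a sequence (Ajuba, Amotl2, Ankrd1, Axl, Ccn1, Crim1 and Ptpn14), against 1249 of 9753 genes tested that had one (12.8%) and 4153 of 32851 windows in the table (12.6%). Among the genes with a 2-fold interaction it was found in 46 of 194 lower genes (23.7%) and 17 of 110 higher genes (15.5%). A CArG box was found in 13 of 194 lower genes (6.70%), 1 of 110 higher genes (0.909%) and 141 of 9753 genes tested (1.45%). The 13 were Cited1, Dusp5, Egr2, Fhl2, Igf2, Myadm, Rap1gap2, Rnd3, Rnf128, Srf, Tceal8, Vcl and Zfp36. The motifs were searched on both strands and do not overlap in the windows printed; the shares are a description of letters, and no binding was measured here.

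Immediate early genes, which cells switch on within minutes of serum, stress or ERK signals, had 9 of 16 among the lower genes and 0 among the higher, with a median interaction of -1.62; 9 of the 16 were called with the block within each stage. Atf3, a stress-induced bZIP factor, stood at 2.12 and 1.69 in DKO bodies, 4.58 and 5.34 in f/f bodies, 40.5 and 30.6 in DKO ESC and 7.75 and 8.35 in f/f ESC. DKO lay above f/f in ESC and below it in bodies in both batches, and the interaction was -3.04 ± 0.25 (adjusted p = 0.0657, stage-block adjusted p = 0.0175). Nr4a1 (Nur77), an orphan nuclear receptor, crossed over in the same way, at 7.05 and 8.61 in DKO bodies, 22.2 and 19.6 in f/f bodies, 111 and 36.4 in DKO ESC and 46.2 and 24.8 in f/f ESC. Egr1, a zinc finger factor downstream of ERK and serum response factor, was at 13.2 and 22.6 in DKO bodies and 25.5 and 36.9 in f/f bodies, against 237 and 131 in DKO ESC and 137 and 81.3 in f/f ESC. Nr4a1 and Egr1 were lower in bodies than in ESC in both genotypes and both batches. Dusp1 (-1.74), a MAP kinase phosphatase, Zfp36 (-1.65), which destabilises AU-rich messages, Egr2 (-1.59) and Egr3 (-2.06) completed the 9 beside Ccn1 and Ccn2.

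Naive pluripotency genes stood on the other side. Of 18 tested, 8 were among the higher genes and 0 among the lower, and the median interaction was 1.17. All 18 were positive, against 5821 of all 12466 genes tested. Klf4, a reprogramming factor that LIF sustains, stood at 56.7 and 30.4 in DKO bodies, 11.8 and 2.60 in f/f bodies, 134 and 228 in DKO ESC and 88.6 and 88.8 in f/f ESC. It was lowest in f/f bodies in both batches, and the interaction was 1.67 ± 0.79 (adjusted p = 0.422). Esrrb, an orphan nuclear receptor of naive ESC, was at 163 and 54.9 in DKO bodies, 49.2 and 7.48 in f/f bodies, 243 and 187 in DKO ESC and 200.4 and 174 in f/f ESC. This gave an interaction of 2.02 ± 0.78 (adjusted p = 0.338, stage-block adjusted p = 0.0475). Zfp42 (Rex1), a marker of the naive state, was at 153 and 82.3 in DKO bodies and 62.1 and 19.7 in f/f bodies, against 202 and 352 in DKO ESC and 211 and 348 in f/f ESC. Prdm14 (1.30), which restrains FGF signals and DNA methylation, had that shape too. Others of the 8 started from a deficit in DKO ESC. Nr0b1 (Dax1), a nuclear receptor, was at 25.8 and 9.65 in DKO bodies, 16.1 and 1.96 in f/f bodies, 30.5 and 31.3 in DKO ESC and 61.1 and 90.1 in f/f ESC. Dppa3 (Stella), a maternal and germ cell protein, was at 2.54 and 2.18 in DKO bodies, 21.9 and 8.28 in f/f bodies, 2.23 and 0.795 in DKO ESC and 54.6 and 39.1 in f/f ESC; it was low in all 4 DKO libraries, f/f bodies held less than f/f ESC, and the interaction was 2.17. Fbxo15 (2.13), an F-box protein used as an ESC reporter, followed Dppa3, and Nr5a2 (1.77), a nuclear receptor, followed Nr0b1. Stat3, the transducer of LIF, was at 24.1 and 18.3 in DKO bodies and 10.7 and 8.65 in f/f bodies, against 37.2 and 37.4 in DKO ESC and 30.3 and 33.9 in f/f ESC, and did not reach 2-fold (0.84; stage-block adjusted p = 0.0448). In the LIF and STAT3 list Klf4 was the 1 member of 12, and the receptor subunit Il6st and the kinase Jak2 had interactions of 0.77 and -0.95.

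In the core pluripotency list 4 of 15 were higher (Sox2, Zfp42, Dnmt3l and Tex19.1) and 1 lower (Tdgf1). The list's median was 0.30, with 0.19 in batch 1 and 0.82 in batch 2. Sox2, the partner of Oct4, stood at 191 and 139.6 in DKO bodies, 149 and 64.8 in f/f bodies, 153 and 214 in DKO ESC and 276 and 224 in f/f ESC, so DKO lay above f/f in bodies and below it in ESC in both batches. Tex19.1, a mammal-specific protein of germ cells and ESC that restrains retrotransposons, was at 109 and 34.0 in DKO bodies, 21.5 and 3.59 in f/f bodies, 59.6 and 49.6 in DKO ESC and 31.6 and 20.7 in f/f ESC. The interaction was 1.55 ± 0.66 (adjusted p = 0.385, stage-block adjusted p = 0.0460). Dppa4 (1.18) and the let-7 inhibitor Lin28b (-1.18) were not 2-fold in both batches. Dnmt3l, the cofactor of de novo DNA methylation and the 1 member of 9 in the DNA methylation list, was at 16.7 and 2.89 in DKO bodies, 45.4 and 10.5 in f/f bodies, 10.1 and 5.04 in DKO ESC and 141 and 89.2 in f/f ESC. The maintenance genes Dnmt1 (0.45) and Uhrf1 (0.49) and the methyl-binding family protein Mbd3 (0.45) lay close to 0. All 15 germline genes tested had a positive mean interaction, against 5821 of all 12466 genes tested, and 1 reached 2-fold in both batches. The list's median was 0.86, made up of 1.09 in batch 1 and 0.24 in batch 2. Dmrt1, a DM-domain factor of the testis and germ cells, stood at 63.7 and 17.6 in DKO bodies, 7.62 and 2.03 in f/f bodies, 11.4 and 9.02 in DKO ESC and 8.03 and 6.4 in f/f ESC. Its interaction was 2.32 ± 0.57 (adjusted p = 0.188, stage-block adjusted p = 0.0145). Sohlh2, a germ cell bHLH factor, was at 57.0 and 11 in DKO bodies and 2.15 and 0.375 in f/f bodies, against 9.99 and 20.7 in DKO ESC and 2.73 and 2.88 in f/f ESC, with DKO above f/f in every pair; its interaction was 2.64 and 0.64 in the 2 batches. Sycp3, of the meiotic chromosome axis, had an interaction of 0.93.

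Of 13 primed epiblast genes tested, 2 were lower and 0 higher, with a median of -0.32. The batches differed in the sign of that median, at -1.10 in batch 1 and 0.21 in batch 2. Sox3, a SoxB1 factor of epiblast and neural plate, crossed over: it stood at 1.97 and 3.35 in DKO bodies, 14.3 and 15.7 in f/f bodies, 8.26 and 5.49 in DKO ESC and 2.13 and 1.32 in f/f ESC. DKO cells held less Sox3 in bodies than in ESC and f/f cells held more. This gave an interaction of -3.68 ± 0.39 (adjusted p = 0.0709, stage-block adjusted p = 0.0117). Foxd3, a forkhead factor of epiblast and neural crest, was at 10.6 and 13.4 in DKO bodies, 21.9 and 14.2 in f/f bodies, 11.7 and 16.8 in DKO ESC and 5.56 and 5.10 in f/f ESC. Cdh2 (N-cadherin) and Zic5 had interactions of -1.02 and 0.51. Of 6 neuroectoderm genes tested, 1 was lower and 1 higher. Nes (nestin), an intermediate filament of progenitors, was at 2.24 and 6.33 in DKO bodies, 50.2 and 50.7 in f/f bodies, 10.8 and 4.95 in DKO ESC and 14.5 and 10.2 in f/f ESC. The interaction was -2.74 ± 0.66 (adjusted p = 0.182, stage-block adjusted p = 0.0406). The Notch ligand Dll1 was at 3.10 and 2.23 in DKO bodies and 1.38 and 1.59 in f/f bodies, against 5.51 and 1.02 in DKO ESC and 15.2 and 3.45 in f/f ESC. Tubb3 (1.102) and Six3 (1.16) did not reach 2-fold in both batches.

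**Figure D4:**
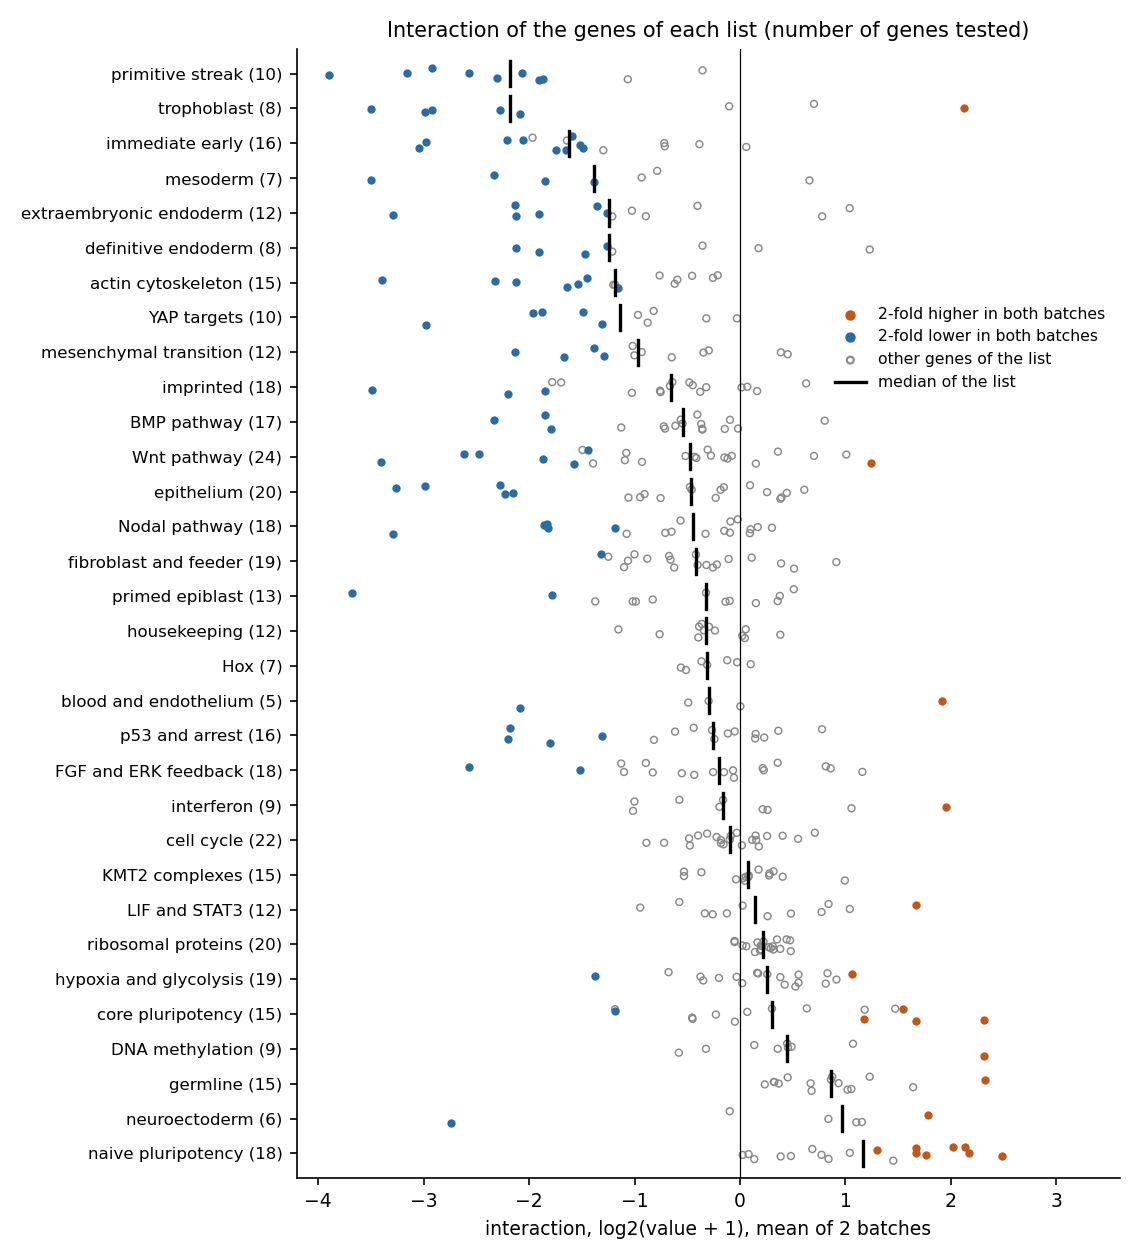
Interaction (log2(value + 1), mean of 2 batches) of every tested gene of 32 lists, with the number tested after each name; filled points are at least 2-fold in both batches, open points are not, and black bars are list medians. Lists run from primitive streak, at a median of -2.18, down to naive pluripotency, at 1.17.

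Of 18 imprinted genes tested, 3 were among the lower genes and 0 among the higher, with a median of -0.65. Cdkn1c (p57), a cyclin-dependent kinase inhibitor expressed from the maternal allele, stood at 21.3 and 22.3 in DKO bodies, 18.9 and 32.5 in f/f bodies, 66.1 and 48.7 in DKO ESC and 16.7 and 10.6 in f/f ESC; DKO ESC lay above all other libraries of their batch. Its interaction was -2.20 ± 0.44 (adjusted p = 0.140, stage-block adjusted p = 0.0282). Peg3, a paternally expressed zinc finger gene, was at 9.63 and 12.9 in DKO bodies, 44.9 and 57.2 in f/f bodies, 58.7 and 30.3 in DKO ESC and 57.6 and 43.2 in f/f ESC, so DKO bodies were the lowest. Igf2, the paternally expressed growth factor, was at 7.61 and 8.21 in DKO bodies and 16.3 and 149.7 in f/f bodies, against 21.9 and 17.0 in DKO ESC and 5.20 and 16.3 in f/f ESC, and the f/f bodies of batch 2 stood far above the rest. The noncoding RNA Meg3 (-1.70) and the adaptor gene Grb10 (-0.66) were not 2-fold in both batches.

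The p53 and arrest list had 4 of 16 among the lower genes and 0 among the higher, all 4 called with the block within each stage. These were Cdkn1c, the membrane protein Perp (-2.18), the BH3-only gene Pmaip1 (Noxa; -1.31) and the antiproliferative gene Btg2 (-1.797). Perp stood at 6.50 and 7.82 in DKO bodies, 19 and 21.9 in f/f bodies, 22.9 and 16 in DKO ESC and 14.3 and 7.98 in f/f ESC, with DKO below f/f in bodies and above it in ESC. Pmaip1 was at 82.1 and 60.8 in DKO bodies and 65.7 and 53.2 in f/f bodies, against 128 and 38.3 in DKO ESC and 35.8 and 14.8 in f/f ESC, so its difference lay in ESC. Ccng1 had an interaction of -0.62. In the hypoxia and glycolysis list 1 of 19 was lower, the glucose transporter gene Slc2a1 (-1.37 ± 0.17; adjusted p = 0.0865, stage-block adjusted p = 0.0273), and 1 higher, the mitophagy gene Bnip3 (1.06). Slc2a1 was at 438 and 379 in DKO bodies, 582 and 527 in f/f bodies, 439 and 348 in DKO ESC and 239 and 176 in f/f ESC. Pfkl (0.55) and Egln3 (0.81) did not reach 2-fold in both batches.

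Among 9 interferon genes tested, Ifitm1 was the 1 higher gene and 0 were lower. It encodes a membrane protein that blocks virus entry and also marks early germ cells and ESC, and stood at 13.7 and 17.4 in DKO bodies, 67.7 and 60.1 in f/f bodies, 9.59 and 6.41 in DKO ESC and 159 and 113 in f/f ESC. All 4 DKO libraries were below all f/f libraries of their batch, and the gap was wider in ESC. This gave an interaction of 1.95 ± 0.30 (adjusted p = 0.0970, stage-block adjusted p = 0.0252). Its neighbour in the family, Ifitm3, was at 27 and 31.2 in DKO bodies and 133 and 119 in f/f bodies, against 71.0 and 72.2 in DKO ESC and 217 and 194 in f/f ESC, with an interaction of the other sign (-0.57); reads shared by such related genes may be split between them. Stat2 and Isg15 had interactions of 1.06 and -1.01. In the blood and endothelium list, of 5 tested, Gata2 was lower and Pecam1 higher (1.92). Pecam1 (CD31), an adhesion molecule of endothelium and of ESC, was at 10.1 and 2.63 in DKO bodies, 6.75 and 2.24 in f/f bodies, 3.42 and 6.80 in DKO ESC and 12.2 and 22.3 in f/f ESC. Esam (-0.49) and Cd34 (-0.30) were not 2-fold in both batches.

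The cell cycle, KMT2, Hox, ribosomal and housekeeping lists held no gene with a 2-fold interaction in both batches. For the cell cycle 0 of 22 reached it, with a median of -0.09 and the lowest p for Ccnd3 (-0.72), Ccnd1 (-0.89), Ccne1 (0.55) and E2f1 (0.71). For subunits and partners of the KMT2 complexes 0 of 15 did, with Psip1, Ash2l, Kmt2b and Ncoa6 at -0.53, 0.99, 0.40 and -0.53. Ash2l, a core subunit of all KMT2 complexes, was called with the block within each stage (stage-block adjusted p = 0.0448). It stood at 123 and 75.8 in DKO bodies, 58.1 and 42.5 in f/f bodies, 75.5 and 85.1 in DKO ESC and 85.6 and 80.2 in f/f ESC. Kmt2d and Kmt2c had interactions of 0.28 and 0.32. Of 7 Hox genes tested, Hoxc8, Hoxa11 and Hoxa9 had interactions of -0.51, -0.56 and -0.36. The batches differed in sign for Hoxa11 (0.26 and -1.38), for Hoxa9 (0.68 and -1.41) and for the list's median (0.26 and -0.98). The Hox list had positive genotype effects at both stages by its medians, 1.58 in bodies and 1.67 in ESC. Ribosomal protein genes had a median of 0.22 and housekeeping genes of -0.32. Rpl37, Rps3 and Rps18 had interactions of 0.47, 0.44 and 0.48. Among housekeeping genes B2m (-1.15), Actb (-0.76), Hprt (-0.39) and Pgk1 (0.38) had the lowest p, and none was called in either fit.

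Because no gene passed the test, the genes with the largest values are given by a rule chosen after the values were seen. It takes the 15 in each direction whose smaller batch value was furthest from 0, leaving out Gm, Rik, Mir and similar names. Mir130b was left out in this way, with an interaction of 3.11 and a smaller batch value of 2.10 on 13 reads in all. Of all 423 genes, 53 were at least 4-fold in both batches, 41 lower and 12 higher. The lower 15 were Gprc5c, Sox3, Tbxt, Krt19, Sp5, Atf3, Fst, Igf2, Mixl1, Ccn1, Tagln, Sfn, Eomes, Phlda1 and Plaur. Gprc5c, an orphan G protein-coupled receptor, stood at 1.53 and 1.08 in DKO bodies, 24.8 and 19.6 in f/f bodies, 8.14 and 3.10 in DKO ESC and 5.91 and 2.01 in f/f ESC. Its batches gave almost the same value, -3.75 and -3.75, for a mean of -3.75 ± 0.39 (adjusted p = 0.0709, stage-block adjusted p = 0.00738). Sfn (14-3-3 sigma), an adaptor of epithelia, was at 15.5 and 24.2 in DKO bodies and 40.1 and 116 in f/f bodies, against 101 and 103 in DKO ESC and 36.3 and 47.0 in f/f ESC, with the genotypes in opposite order at the 2 stages. Plaur, the urokinase receptor, was at 3.37 and 1.01 in DKO bodies and 18.8 and 15.9 in f/f bodies, against 28.0 and 6.52 in DKO ESC and 12.3 and 9.40 in f/f ESC; in ESC the batches disagreed on which genotype was higher. Phlda1, a pleckstrin homology-like gene induced by growth signals, had an interaction of -2.97.

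The higher 15 were Septin1, Tdrd12, Sox21, Dnmt3l, Calml4, Dmrt1, Inpp5d, Klhl13, Dppa5a, Tcp11, Ly6g6e, Gli1, Pla2g1b, Morc1 and Krt42. Septin1, a filament-forming GTPase, stood at 10.1 and 3.88 in DKO bodies, 12.7 and 5.21 in f/f bodies, 4.84 and 10.2 in DKO ESC and 57.5 and 118 in f/f ESC. In both batches f/f ESC were far above the other groups, and the interaction was 3.04 ± 0.87 (adjusted p = 0.230, stage-block adjusted p = 0.00738). Tdrd12, a Tudor protein of the piRNA pathway in germ cells, had that shape, at 7.22 and 5.04 in DKO bodies, 7.87 and 3.96 in f/f bodies, 2.19 and 4.84 in DKO ESC and 21.9 and 32.1 in f/f ESC. So did Inpp5d (SHIP1), a lipid phosphatase, at 2.49 and 0.662 in DKO bodies, 3.04 and 1.39 in f/f bodies, 1.03 and 0.385 in DKO ESC and 10.4 and 7.76 in f/f ESC. Sox21, a SoxB2 factor, was at 2.08 and 2.31 in DKO bodies and 1.54 and 0.371 in f/f bodies, against 1.15 and 1.04 in DKO ESC and 8.55 and 4.37 in f/f ESC, so the genotypes were in opposite order at the 2 stages. Gli1, the effector and target of hedgehog signals, crossed over in the same way, at 15.7 and 6.53 in DKO bodies, 4.43 and 2.23 in f/f bodies, 11.7 and 15.8 in DKO ESC and 19.6 and 27.7 in f/f ESC. Dppa5a, an RNA-binding protein of ESC, was at 649 and 191 in DKO bodies, 259 and 157 in f/f bodies, 137 and 559 in DKO ESC and 1025 and 1975 in f/f ESC; it has close copies in the genome, so its reads are uncertain. The remaining genes had interactions of 2.34 (Calml4, a calmodulin-like gene), 2.20 (Klhl13, a ubiquitin ligase adaptor), 2.15 (Tcp11, a testis gene), 2.39 (Ly6g6e), 2.27 (Pla2g1b, a secreted phospholipase), 2.07 (Morc1, which silences transposons in male germ cells) and 2.48 (Krt42, a keratin).

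Hairpin genes of the Mir302 and Mir367 cluster, microRNAs of early embryonic cells that hasten the cell cycle and exit from the naive state, appeared among the lower genes as Mir302a and Mir302d. Mature 3p sequences of the cluster are shown because its members share or differ in the seed, bases 2 to 8, which is in capitals. The sequence of miR-302a-3p was not available here and is not shown. The entries lie on chr3 (GRCm38.p6, plus strand) and come from RefSeq.
miR-302b-3p: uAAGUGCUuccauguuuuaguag
miR-302c-3p: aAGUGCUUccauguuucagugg
miR-302d-3p: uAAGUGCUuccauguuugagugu
miR-367-3p: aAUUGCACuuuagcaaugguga
miR-302b and miR-302d have the same seed, miR-302c has that seed shifted by 1 base, and miR-367 has another. Poly(A) RNA libraries do not measure mature microRNAs, and the reads came from the hairpin loci of longer transcripts. Few reads lay behind them. Mir302d had 1 and 1 reads in DKO bodies, 8 and 9 in f/f bodies, 2 and 3 in DKO ESC and 2 and 2 in f/f ESC. The interaction was -2.55 ± 0.34 (SE; adjusted p = 0.0865). Mir302a had 1 and 3 reads in DKO bodies, 10 and 10 in f/f bodies, 0 and 1 in DKO ESC and 0 and 2 in f/f ESC. Mir302b had 0 and 5 reads in DKO bodies, 18 and 5 in f/f bodies, 1 and 2 in DKO ESC and 4 and 1 in f/f ESC. Mir302c had 0 and 6 reads in DKO bodies, 5 and 9 in f/f bodies, 0 and 2 in DKO ESC and 2 and 1 in f/f ESC. Mir367 had 0 and 3 reads in DKO bodies, 14 and 8 in f/f bodies, 1 and 0 in DKO ESC and 1 and 3 in f/f ESC. Over the 5 hairpins the reads summed to 2 and 18 in DKO bodies, 55 and 41 in f/f bodies, 4 and 8 in DKO ESC and 9 and 9 in f/f ESC. In both batches the sum was highest in f/f bodies, while Mir302b, Mir302c and Mir367 did not reach a 2-fold interaction in both batches.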

How the data were processed

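RNA-Seq libraries of ESC and D4EB were made from poly(A) RNA with Dynabeads and Illumina TruSeq kits, per the labels' protocols. Batch 1 holds the read count and the RPKM of each RefSeq transcript, per the file headers; batch 2, whose titles carry a suffix, holds 1 deposited FPKM per Entrez gene. Named in the submitters' processing notes are mm9, bedtools 2.16, SICER 1.1 and, for batch 2, CASAVA 1.8.2. Not given in the sources used here are the aligner, strand setting and treatment of shared reads, so overlapping, antisense and near-identical genes are uncertain.

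Of 29082 transcripts, 28436 were joined to genes by accession (GRCm38.p6 gene table, names only), and 3760 genes with several were represented by their most-read transcript. Of the resulting genes, 22456 were in both batches. Read depth in batch 2 was worked out from low deposited FPKM values, of which 91.5% to 92.3% per library were whole reads within 0.02. Precision is set by 2 libraries per group.

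The interaction was tested with limma 3.58.1 (R 4.3.3) on log2(value + 1) with 4 groups and the batch as terms and a mean-variance trend, over genes with a mean of at least 1, two-sided, Benjamini-Hochberg adjusted over all genes tested at 0.05, with 3 residual degrees of freedom beside 3.27 prior ones. This scale understates changes of low genes. The batch pairs the libraries by unit of deposit and title, and entered as a block. edgeR 4.0.16 on reads was an added alternative. Scripts were tested on simulated data. Per-batch values are differences of single libraries. Samples outside these 8 were not analysed here.

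The genes described and the 32 gene lists (539 entries, 536 in both batches) were chosen with earlier results of these data known. The text names Kmt2d, Kmt2c, the genes past the threshold (none), up to 4 genes of smallest p from each list with at least 5 tested, and the members of each list; genes with Gm, Rik or similar names were counted only, and some genes that the rules name are not reported here. The 15 genes in each direction, the motifs, the Mir302 genes and further genes beside them were chosen after values were seen.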

Additional observations from a re-analysis of the deposited data

Results flagged for a closer look

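The genotype effect had opposite signs in bodies and in ESC, in both batches, in some of the genes with a 2-fold interaction that are named above or below. The difference between the stages was tested for each of them as the interaction, and with limma and a single batch block 0 passed an adjusted p of 0.05, beside 1704 of all genes tested at an unadjusted p below 0.05; edgeR on the reads also called 0. The value given for each is its interaction on the log2(value + 1) scale. That test does not weigh the effect at each stage, and some of those effects were small. In ESC the mean effect was 0.11 for Zyx, 0.13 for Zfp36 and Cald1, 0.14 for Flnc and -0.11 for Aifm2. In a first set DKO lay below f/f in bodies and above it in ESC. Its lowest values were those of Gprc5c (-3.75), Sox3 (-3.68), Hand1 (-3.49), Igf2 (-3.49), Fst (-3.29), Krt19 (-3.26), Sfn (-3.04), Atf3 (-3.04), Ccn1 (-2.97), Phlda1 (-2.97), Eomes (-2.92), Fzd10 (-2.62) and Msx1 (-2.34). Next came Dusp5 (-2.31), Evx1 (-2.30), Flnc (-2.28), Myadm (-2.21), Nr4a1 (-2.21), Perp (-2.18), Gata2 (-2.08), Rnd3 (-1.996), Lats2 (-1.88), Nodal (-1.83), Btg2 (-1.80), Id1 (-1.79) and Foxd3 (-1.78). Closer to 0 were Dusp1 (-1.74), Rnf128 (-1.71), Zfp36 (-1.65), Zyx (-1.64), Cald1 (-1.63), Tpm4 (-1.54), Egr1 (-1.52), Tceal8 (-1.39), Slc2a1 (-1.37), Col4a1 (-1.35), Srf (-1.18) and Pgap4 (-1.08). In a second set DKO lay above f/f in bodies and below it in ESC: Dppa5a (3.16), Sox21 (2.55), Nr0b1 (2.48), Ly6g6e (2.39), Gli1 (2.158), Tcp11 (2.15), Ptch1 (2.13), Morc1 (2.07), Pecam1 (1.92), Dll1 (1.78), Nr5a2 (1.77), Aifm2 (1.19) and Sox2 (1.18). For Hand1 and Igf2 the f/f bodies of batch 2 stood far above the other libraries. Flnc, Cald1 and Ptch1 come from the groups below, which were put together after values were seen.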

How the results depend on the processing

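The count of genes called for the interaction was 0 under pseudocounts of 0.1 and 5, no filter on low values, a mean of at least 5, median-of-ratios or quantile scaling, no replicate block, no mean-variance trend, summed transcripts, edgeR on reads (added after seeing the data) and each of the 8 fits that left out 1 library (range 0 to 0). It moved to 353 of 12466 genes (127 higher, 226 lower) with the replicate block within each stage. It moved to 451 of 12408 genes (202 higher, 249 lower) with edgeR and that block, also added after seeing the data. Of 190 genes named, 95 and 99 were then called. Many of the 190 were named for their values in these same libraries, so nothing is read from those counts. The lone library left in a group was assumed to vary like the other groups. With no gene called by limma under the single batch block, the shape among called genes could not be described.

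The 423 genes with a 2-fold interaction in both batches (148 higher, 275 lower, 207 with opposite genotype effects) became 688 (247, 441 and 322) with a pseudocount of 0.1, 165 (61, 104 and 83) with 5, and 257 (97, 160 and 132) with a mean of at least 5, where fewer genes are tested. They were 397 to 449 in the other alternatives run. Leaving out 1 library gives no value for this count, since both batches are needed.

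No named gene changed direction except when 1 library was left out, and then 6 genes did, whose interactions lay between -0.56 (Hoxa11) and 0.74 (Gli2): the ranges were -0.90 to 0.26 for Crim1, -0.047 to 1.53 for Gli2, -1.59 to 0.47 for Hoxa11, -1.32 to 0.60 for Hoxa9, -0.0055 to 0.64 for Kmt2c and -0.048 to 0.61 for Kmt2d. The cause was not tested. Low genes are limited by depth, least in DKO bodies of batch 1 and most in f/f bodies of batch 2.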

Other observations

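Groups of genes below were put together after their values were seen, so their counts support nothing. 13 actin-binding and actin-linked genes outside the list above were all among the lower genes, with a median interaction of -1.56. They included serum response factor itself (Srf, -1.18), which stood at 17.5 and 22.1 in DKO bodies, 32.5 and 33.6 in f/f bodies, 50.3 and 33.3 in DKO ESC and 35.3 and 24.6 in f/f ESC, the filamin gene Flnc (-2.28), and caldesmon (Cald1, -1.63). Of 18 annexin, S100 and galectin genes, small calcium- and sugar-binding proteins, 6 were lower and 0 higher. S100a10, the partner of annexin A2, was at 28.4 and 35.0 in DKO bodies, 129 and 199 in f/f bodies, 65.6 and 66.8 in DKO ESC and 72.8 and 70.0 in f/f ESC. Lgals3 (galectin-3) was at 1.08 and 1.95 in DKO bodies and 7.74 and 12.2 in f/f bodies, against 16.8 and 6.04 in DKO ESC and 8.80 and 11.1 in f/f ESC. All 3 Rtl8 genes, X-linked copies of a retrotransposon gag gene, were lower, with a median of -1.48, and may share reads.

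Among 10 hedgehog pathway genes tested, Gli1 and its fellow target Ptch1 were the 2 higher genes, while the list's median was -0.34. Ptch1, the receptor that hedgehog signals induce, was at 24.8 and 16.6 in DKO bodies, 11.9 and 14.8 in f/f bodies, 10.8 and 10.6 in DKO ESC and 33.6 and 33.2 in f/f ESC. Gli2, also a mediator of the pathway, was at 29.3 and 10.9 in DKO bodies and 4.75 and 3.62 in f/f bodies, against 24.7 and 32.4 in DKO ESC and 9.83 and 15.3 in f/f ESC, with DKO above f/f in every pair and an interaction of 0.74. Of 3 metallothionein genes, metal-binding proteins, 2 were higher, and of 5 carbonic anhydrases 3 were lower. Car4 was at 3.72 and 9.08 in DKO bodies, 123 and 169.7 in f/f bodies, 6.12 and 1.14 in DKO ESC and 18.6 and 8.24 in f/f ESC.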
